A study of Mus musculus with 2 samples.

Results

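Immediate early genes were followed on their own in single-cell RNA sequencing of B16F10 melanomas grown in mice with and without host Atf4. The 10 genes were Fos, Fosb, Jun, Junb, Jund, Egr1, Egr2, Ier2, Dusp1 and Zfp36, taken as a named list, and all 10 were among the 31053 genes of the count matrices. B16F10 is a mouse melanoma cell line, and its cells were injected under the skin of C57BL/6 hosts and carry their own intact Atf4. There were 2 libraries, each a pool of 2 small tumours from male and female hosts aged 11 weeks per the labels. The WT library came from hosts labelled Atf4wt/wt (Atf4 WT/WT) and the KO library from hosts labelled Atf4D/D (Atf4 Δ/Δ). Per the study's methods, hosts of both genotypes carried the tamoxifen-inducible Rosa26::CreERT2 transgene, which acts in all tissues, and both received tamoxifen by oral gavage, so that they differed in floxed against wild-type Atf4. Since each genotype is 1 library, genotypes were compared by size and not by a test. Intervals are at 95% and cover counting error only, not the difference between cells, tumours or mice. They are therefore narrower than intervals that allowed for the spread between cells.

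Immediate early genes are switched on within minutes of a growth factor, cytokine or stress signal, without the need for new protein. Kinases of the MAP kinase pathways act on factors already bound at the promoters, among them serum response factor with its ternary complex partners and CREB. The products are transcription factors of the AP-1 group (Fos and Jun families) and the EGR zinc-finger group, together with inhibitors that end the response. In solid tissue the same genes are known to be induced by enzymatic dissociation and warming, which every cell here went through before capture. How much of each level arose in the tumour and how much during dissociation was not tested, and both libraries were dissociated by the same protocol.

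Promoter sequence next to the transcription start is shown for 4 genes, and elements further upstream are not shown. Sequences are the reference bases upstream of the RefSeq transcription start (GRCm38.p6), written 5′ to 3′ on the strand of the gene, at chr12:85473640-85473889 (plus strand) for Fos, chr7:19310052-19310295 (minus) for Fosb, chr4:95052223-95052472 (minus) for Jun and chr17:26508520-26508722 (minus) for Dusp1. Bases that GENCODE places in an exon of the gene were left out, 6 for Fosb and 47 for Dusp1. Capitals mark TGACG, the core of the cAMP response element (CRE), in Fos, Fosb and Dusp1, the full element TGACGTCA in Dusp1, GCGGGGGCG, a motif of EGR factors, in Fosb, and TGACATCA and TTACCTCA, the pair known as Jun sites, in Jun.
Fos: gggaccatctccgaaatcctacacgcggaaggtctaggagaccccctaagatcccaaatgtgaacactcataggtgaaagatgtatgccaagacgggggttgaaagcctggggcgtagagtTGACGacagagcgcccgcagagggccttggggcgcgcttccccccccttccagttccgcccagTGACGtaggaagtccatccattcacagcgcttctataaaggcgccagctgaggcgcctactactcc
Fosb: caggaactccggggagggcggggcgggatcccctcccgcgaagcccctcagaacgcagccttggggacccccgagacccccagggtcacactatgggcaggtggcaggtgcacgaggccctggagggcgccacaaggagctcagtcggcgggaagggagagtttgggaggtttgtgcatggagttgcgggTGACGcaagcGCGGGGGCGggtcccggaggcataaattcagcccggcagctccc
Jun: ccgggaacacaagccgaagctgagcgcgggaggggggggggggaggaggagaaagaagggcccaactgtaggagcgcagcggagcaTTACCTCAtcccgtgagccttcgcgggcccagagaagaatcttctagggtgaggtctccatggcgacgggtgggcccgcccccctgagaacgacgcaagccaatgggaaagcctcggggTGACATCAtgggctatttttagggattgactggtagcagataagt
Dusp1: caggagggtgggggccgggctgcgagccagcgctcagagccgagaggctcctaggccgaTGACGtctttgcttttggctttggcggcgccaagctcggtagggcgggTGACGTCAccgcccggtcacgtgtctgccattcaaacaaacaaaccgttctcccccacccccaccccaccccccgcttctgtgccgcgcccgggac

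Motifs were counted on both strands of the 250 bases before the start in 32851 RefSeq windows. Of the 10 genes, 8 had a window, and Egr1 and Ier2 had none in the table. TGACG was found in 5 of the 8, namely Fos, Fosb, Junb, Egr2 and Dusp1, and in 17.8% of all windows. In Fos it stood 129 and 66 bases before the start, in Fosb 60, and in Dusp1 at 191 and, within the full TGACGTCA, at 143. The full element was in Dusp1 alone of the 8 and in 1.55% of windows. The CArG box, which serum response factor binds, was found in Egr2 and Zfp36 and in 1.47% of windows. GCGGGGGCG was in Fosb and Zfp36 and in 2.57% of windows. The Jun sites TGACATCA and TTACCTCA were found in Jun alone of the 8, at 45 and 164 bases before its start, and in 2.93% and 0.728% of windows. TGATGCAA, a form of the C/EBP-ATF element that ATF4 dimers can bind, was in none of the 8 windows and in 0.791% of all windows. These matches are descriptions of the letters in the windows. Elements more than 250 bases before the start were not searched, so a motif not found here may still lie further upstream.

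The deposited barcodes numbered 6304 in WT and 5474 in KO, with 10 barcode sequences shared between the libraries, and 3861 and 3557 cells passed the filters with a median of 3920 and 6279 UMIs. Each cell was placed in a class from marker genes, none of them among the 10 genes studied. This gave 1679 WT and 1723 KO melanoma-like cells, 189 and 220 cells like cancer-associated fibroblasts (CAF-like), 803 and 648 macrophage-like, 252 and 187 monocyte-like, 63 and 21 endothelial-like and 37 and 13 T/NK-like cells. All 10 CAF markers and all 10 macrophage markers were seen in their own class in both libraries, which is no separate check, since these markers set the classes. The median depth in WT and KO was 3747 and 3755 UMIs in CAF-like, 2454 and 2448.5 in macrophage-like and 1105 and 1073 in monocyte-like cells, and it was further apart in endothelial-like cells, at 2842 and 3795, and T/NK-like cells, at 754 and 947. In CAF-like cells Atf4 itself stood at 256 CPM (UMIs per 1000000 UMIs of the class) for WT and 43.7 for KO. On the log2 scale this KO/WT ratio was -2.55 (-3.08 to -2.05), that of macrophage-like cells was -2.15 and that of melanoma-like cells -0.16. The sex of the pools differed in the counts. Labelled as male and female, the WT library held 0 UMIs of 4 Y-linked genes in each class of host cells, while the KO library held 73 in CAF-like and 130 in macrophage-like cells. Results on host cells are therefore also given for cells in which Xist but none of the Y-linked genes was seen (Xist-only cells below).

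Immediate early RNA made up a far larger share of UMIs in host cells than in the melanoma cells they grew among. Melanoma-like cells were deeper, with a median of 11461 (WT) and 10996 (KO) UMIs, and RNA per whole cell was not compared. Summed over the 10 genes, melanoma-like cells held 723 (WT) and 747 (KO) CPM, while CAF-like cells were at 5169.8 and 3006, macrophage-like cells at 3840.3 and 3371, monocyte-like cells at 4139 and 3751 and endothelial-like cells at 3835 and 3285 CPM. In CAF-like against melanoma-like cells, 10 of 10 genes were higher past 2-fold in WT and 10 of 10 in KO, where 18.7% and 16.1% of all genes with at least 20 UMIs were. In macrophage-like cells it was 10 and 9 of 10, against 17.3% and 16.3% of genes. Melanoma RNA in other cells was gauged from 4 pigment genes. Their level in CAF-like cells was 4.15% (WT) and 5.91% (KO) of that in melanoma-like cells, equal to 30.0 and 44.2 CPM over the 10 genes. In macrophage-like cells it was 6.24% in both, equal to 45.1 and 46.7 CPM, and in monocyte-like cells 11.7% and 12.8%, equal to 84.3 and 95.9 CPM. The part of RNA from other cells in these levels was not tested, in host or melanoma-like cells.

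For CAF-like and macrophage-like cells, the EGR genes showed the widest separation from melanoma-like cells. In WT macrophage-like cells, however, the intervals of Egr1 and Egr2 overlapped that of Zfp36, as did that of Egr2 in KO CAF-like cells. In monocyte-like cells Egr1 was only 4.52-fold (WT) and 11.7-fold (KO) higher, less than Zfp36 at 46.6-fold and 28.3-fold. Egr1 (ENSMUSG00000038418) encodes a zinc-finger factor that serum induces strongly in fibroblasts. It was at 8.37 and 7.94 CPM in WT and KO melanoma-like cells and at 918 and 550.4 CPM in CAF-like cells, 110-fold and 69.4-fold higher. Egr1 was highest in CAF-like cells in both libraries and was 292 and 291 CPM in macrophage-like cells. Egr2 (ENSMUSG00000037868, chromosome 10, 67535475 to 67542188, plus strand, 2 exons), a relative of Egr1 known from myelinating glia and lymphocytes, was nearly absent from melanoma-like cells with 13 and 8 UMIs, 0.676 and 0.418 CPM. It was at 64.3 and 16.4 CPM in CAF-like and at 34.0 and 39.9 CPM in macrophage-like cells. The smallest separations were those of Fos in WT, at 3.69-fold, and of Jun in KO, at 2.05-fold, in CAF-like over melanoma-like cells.

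**Figure D1:**
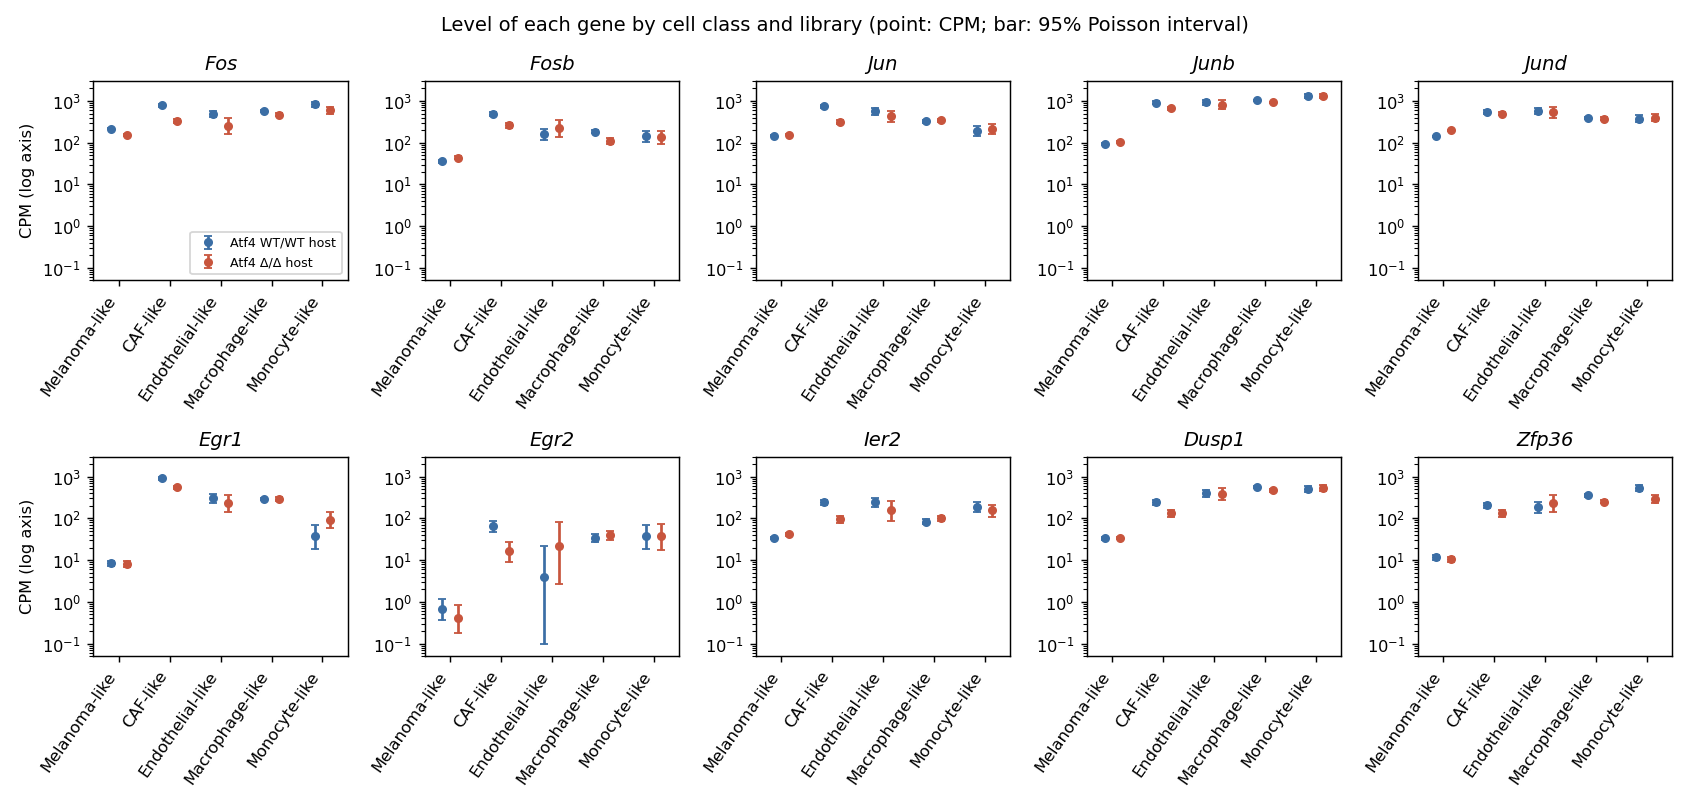
Level of each of the 10 genes in CPM (log axis) in 5 cell classes of the WT (blue) and KO (red) library, with 95% Poisson intervals. The melanoma-like points lie lowest for every gene, with overlap of intervals for Jun in WT monocyte-like cells and Egr2 in WT endothelial-like cells (1 UMI), and WT lies above KO for all 10 genes in CAF-like cells.

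The order of the host classes, taken over classes with at least 20 cells in a library and thus without the 13 KO T/NK-like cells, differed from gene to gene. Fosb and Egr1 were highest in CAF-like cells in both libraries, although for Fosb in KO the intervals of CAF-like and endothelial-like cells overlapped. Junb and Zfp36 were highest in monocyte-like cells in both libraries, followed by macrophage-like cells, and the monocyte-like interval of Zfp36 in KO overlapped that of macrophage-like cells. Junb reached 1294 and 1295 CPM there, against 1038 and 921 CPM in macrophage-like, 913 and 674 CPM in CAF-like and 92.6 and 104 CPM in melanoma-like cells. Jund was highest in endothelial-like and CAF-like cells, which overlapped in both libraries. Dusp1 was led by macrophage-like and monocyte-like cells, which overlapped in both libraries. For Jun, CAF-like cells were highest in WT, apart from all other classes, and came in KO after endothelial-like and macrophage-like cells, with overlapping intervals. T/NK-like cells held only 90 and 47 UMIs of the 10 genes together, and Egr2 had 0 UMIs there in both libraries, where 3 counts would be 83.3 CPM in WT.

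The comparison of host genotypes showed lower immediate early RNA in KO than in WT CAF-like cells. The sum of the 10 genes was lower, with a log2 KO/WT ratio of -0.78 (-0.85 to -0.71), from 3858 UMIs in WT to 2753 in KO. Of the 10 genes, 4 were lower in KO past 2-fold, where 5.82% of 7308 genes were, and 9 of 10 had an interval wholly below 0, where 11.6% of genes did. None was higher past 2-fold, where 5.01% of genes were, and none had an interval above 0, where 9.55% did. Their median log2 ratio was -0.90 and that of all genes tested was -0.04. The ratio differed between KO cells with Xist and KO cells with Y-linked UMIs. In Xist-only cells the sum was at -0.45 and 1 of 10 genes, Fos, was lower past 2-fold, as described below.

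Among the Fos family, both members were lower in KO CAF-like cells. Fos (ENSMUSG00000021250, chromosome 12, 85473890 to 85477273, plus strand, 4 exons) encodes c-Fos, which binds DNA only with a Jun partner. It had 596 UMIs in WT and 303 in KO, 799 (736 to 865) and 331 (295 to 370) CPM, which is a KO/WT ratio of -1.27 (-1.48 to -1.07) on the log2 scale used for all ratios here. The WT value lay above the KO value well beyond the counting intervals, and only 3.28% of genes tested had a lower ratio. Fosb (ENSMUSG00000003545, chromosome 7, 19302696 to 19310051, minus strand, 4 exons), a relative whose truncated form outlasts c-Fos, had 369 and 241 UMIs, 494 and 263 CPM, and a ratio of -0.91 (-1.15 to -0.67).

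The Jun family did not move as 1 group. Jun (ENSMUSG00000052684, chromosome 4, 95049034 to 95052222, minus strand, 1 exon), the main partner of c-Fos, had 559 and 291 UMIs, 749 and 318 CPM, and a ratio of -1.24 (-1.45 to -1.03). For Junb (ENSMUSG00000052837, chromosome 8, 84974484 to 84978718, minus strand, 1 exon), often an antagonist of c-Jun, the 681 and 617 UMIs gave 913 and 674 CPM and a ratio of -0.44 (-0.60 to -0.28). Jund (ENSMUSG00000071076, chromosome 8, 70698949 to 70700616, plus strand, 1 exon) is the family member known for steady expression in resting cells. It had 405 and 453 UMIs, 543 and 495 CPM, and its ratio of -0.13 (-0.33 to 0.06) could not be told from 0 by counting error. Jun was thus below WT past 2-fold, Junb by less, and Jund was not shown to differ.

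Egr1 had 685 and 504 UMIs in these cells and a ratio of -0.74 (-0.91 to -0.57). Egr2 gave the lowest ratio of the 10, -1.97 (-2.92 to -1.11), on 48 and 15 UMIs, and its wide interval reflects these low counts. Ier2 (ENSMUSG00000053560, chromosome 8, 84661331 to 84662852, minus strand, 1 exon), an early response gene encoding a nuclear protein, had 180 and 87 UMIs, 241 and 95.005 CPM, and a ratio of -1.34 (-1.73 to -0.97). The inducible transcription factors and Ier2 were therefore all below WT, by different amounts.

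The inhibitors of the response were lower as well. Dusp1 (ENSMUSG00000024190, chromosome 17, 26505590 to 26562128, minus strand, 4 exons) encodes a phosphatase that switches off MAP kinases. It had 182 and 120 UMIs, 244 and 131 CPM, and a ratio of -0.90 (-1.24 to -0.56). Zfp36 (ENSMUSG00000044786, chromosome 7, 28376784 to 28380253, minus strand, 2 exons) encodes tristetraprolin, which binds AU-rich elements and speeds the decay of messages such as that of tumour necrosis factor. It had 153 and 122 UMIs, 205 and 133 CPM, and a ratio of -0.62 (-0.98 to -0.27). GENCODE also places antisense genes over the starts of Jun and Zfp36, and the use of strand in counting is not given in the sources used here.

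**Figure D2:**
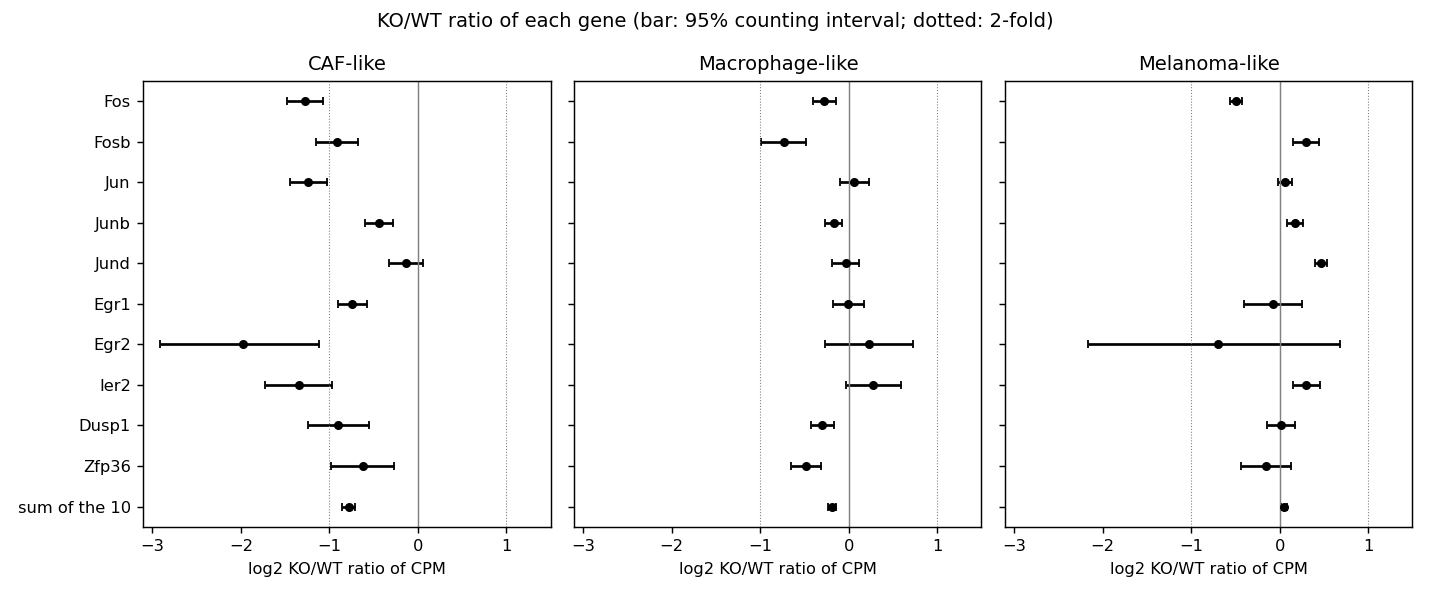
Log2 KO/WT ratio of CPM for each of the 10 genes and their sum in CAF-like, macrophage-like and melanoma-like cells, with 95% counting intervals and dotted lines at 2-fold. In CAF-like cells all points lie below 0 and the interval of Jund alone includes it, whereas macrophage-like and melanoma-like cells scatter around 0 with sums of -0.19 and 0.05.

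In macrophage-like cells the differences were smaller and not all in 1 direction. The sum was at -0.19 (-0.24 to -0.14), 0 of 10 genes were lower or higher past 2-fold, where 2.64% and 2.91% of genes were, and 5 of 10 intervals lay below and 0 above 0, where 10% and 9.62% of genes did. Fosb had 400 and 188 UMIs, 184 and 110 CPM, and the lowest ratio, -0.74 (-0.99 to -0.48). Zfp36, with 770 and 431 UMIs, was at -0.48 (-0.66 to -0.31), and Dusp1, with 1250 and 794 UMIs, at -0.30 (-0.43 to -0.17). Both inhibitors of the response and Fosb were thus lower in KO macrophage-like cells. Fos was at -0.28 (-0.41 to -0.15) and Junb at -0.17 (-0.27 to -0.08). Jun at 0.065, Jund at -0.04, Egr1 at -0.003, Egr2 at 0.23 and Ier2 at 0.28 had intervals that included 0.

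Melanoma-like cells, which keep Atf4 in both hosts, had nearly the same sum in both libraries, with a ratio of 0.05 (0.01 to 0.08), and 0 of 10 genes lower or higher past 2-fold, where 1.05% and 3.36% of genes were. With 19227150 and 19153669 UMIs in the class, smaller differences stood out from counting error. Fos had 4161 and 2950 UMIs, 216 and 154 CPM, and was lower in the KO host at -0.49 (-0.56 to -0.42). Jund had 2734 and 3763 UMIs, 142 and 196 CPM, and was higher at 0.47 (0.39 to 0.54). Fosb at 0.29, Ier2 at 0.30 and Junb at 0.17 were also above 0, while the intervals of Jun, Egr1, Egr2, Dusp1 and Zfp36 included 0. The share of cycling cells differed between the libraries, and values split by cycling markers are given below. In this class 20.3% of all genes had intervals below 0 and 24% above, so that 1 and 4 of 10 genes are near what the class shows at large. Fos was thus the only 1 of the 10 genes with an interval below 0 in melanoma-like, macrophage-like, monocyte-like, endothelial-like and CAF-like cells, all taken from the same pair of libraries.

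The other host classes held fewer cells. In endothelial-like cells Fos had 124 and 23 UMIs and a ratio of -0.95 (-1.66 to -0.30), and it was the only 1 of 9 genes with at least 20 UMIs whose interval lay off 0, where 5.93% of genes lay below and 7.16% above. Egr2 had 1 and 2 UMIs there and no ratio is given. In monocyte-like cells Fos was at -0.48 (-0.79 to -0.17) on 240 and 141 UMIs and Zfp36 at -0.88 (-1.30 to -0.46) on 157 and 70 UMIs, so that 2 of 10 intervals lay below 0, where 8.06% of genes did. Egr1 was higher in KO monocyte-like cells at 1.29 (0.18 to 2.48), on 11 and 22 UMIs, where 7.23% of genes had an interval above 0.

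The mix of host sexes was examined in CAF-like cells, where 154 WT and 55 KO cells were Xist-only and 50 KO cells had Y-linked UMIs without Xist. Against the same 154 WT cells, the sum of the 10 genes was at -0.45 (-0.57 to -0.34) in the KO cells with Xist and at -1.03 (-1.15 to -0.92) in those with Y-linked UMIs. The 2 sets held 731 and 709 of these UMIs, at 3774 and 2523 CPM, so cells with Y-linked UMIs were deeper on average. Sums were lower in deeper CAF-like cells, as given below, and the part of depth in this gap was not tested. Fos was lower in both sets of KO cells, at -1.35 (-1.76 to -0.96) and -1.67 (-2.05 to -1.31). Jun was at -0.90 (-1.27 to -0.55) and -1.48 (-1.85 to -1.12), and Egr1 at -0.59 (-0.89 to -0.30) and -1.06 (-1.35 to -0.77). Ier2 and Dusp1 also had intervals below 0 in both. Junb and Zfp36 were not lower in the cells with Xist, at 0.18 (-0.06 to 0.41) and 0.060 (-0.48 to 0.57), and the intervals of Fosb and Egr2 included 0 there, at -0.27 (-0.63 to 0.09) and -0.91 (-2.30 to 0.26). Fosb was at -1.69 (-2.17 to -1.23) in the cells with Y-linked UMIs. Fos, Jun, Egr1, Ier2 and Dusp1 were thus below WT in both sets of KO cells, and the intervals of the 2 sets did not overlap for Fosb and Junb. Junb was at -0.78 (-1.05 to -0.52) in the cells with Y-linked UMIs, and Zfp36 was at -0.41 (-0.94 to 0.09), which included 0 and overlapped its interval in the cells with Xist. In macrophage-like cells the order was the other way, with sums of -0.39 (-0.51 to -0.28) for 74 cells with Xist and -0.05 (-0.15 to 0.04) for 107 cells with Y-linked UMIs. The WT library offers no cells with Y-linked UMIs to compare, so for those cells sex and genotype cannot be told apart. Each library is a pool of 2 tumours, so sex cannot be told apart from mouse or tumour either.

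**Figure D3:**
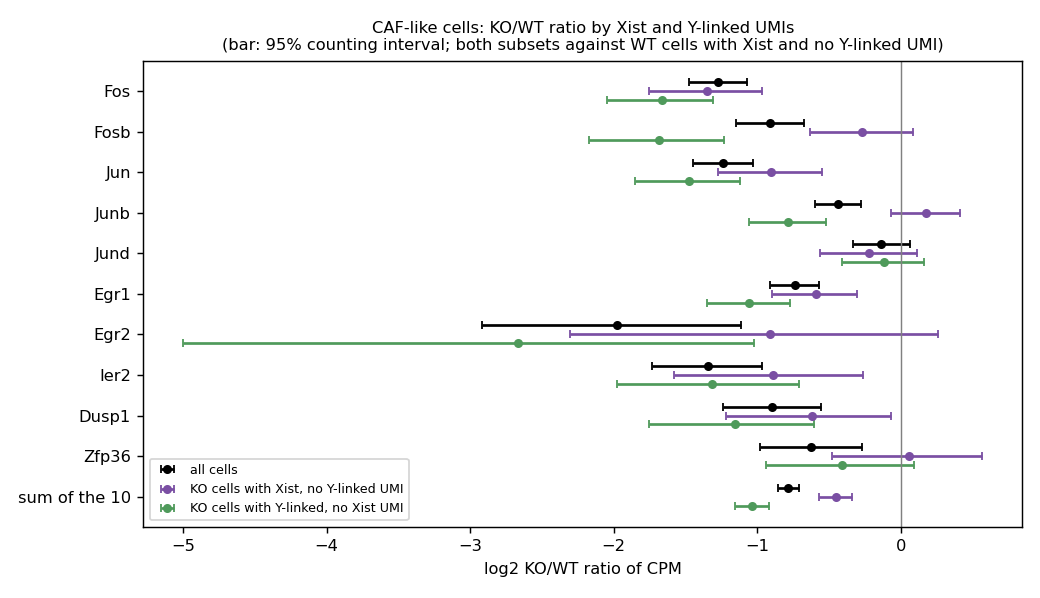
Log2 KO/WT ratio of CPM in CAF-like cells for all cells (black) and for KO cells with an Xist UMI (purple) or a Y-linked UMI (green), the last 2 against the 154 WT cells with Xist. The sum moves from -0.78 to -0.45 and -1.03, and Fos and Jun stay below 0 in all 3.

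Seen per cell, Fos, Jun, Egr1 and Jund were each found in 40% or more of the CAF-like cells of either library. With each cell thinned to 2000 UMIs, which left 163 WT and 190 KO CAF-like cells and dropped 26 and 30, a Fos UMI was found in 60.7% of WT (52.8 to 68.3) and 41.1% of KO cells (34.0 to 48.4). Without thinning the shares were 73.0% and 52.3%. Jun was found in 68.7% (61.0 to 75.7) and 40% (33.0 to 47.3) of thinned cells, Egr1 in 68.1% (60.4 to 75.2) and 53.2% (45.8 to 60.4), and Jund in 62.0% (54.0 to 69.4) and 61.1% (53.7 to 68.0). The intervals of the 2 libraries did not overlap for Fos and Jun. They overlapped for Jund and for all others of the 10 genes, narrowly so for Egr1. Thinned melanoma-like cells, whose median depth before thinning was 11461 (WT) and 10996 (KO) UMIs, showed Egr1 in 1.495% and 1.57%. How much of the RNA in either class reached the cells from outside was not tested by these shares. The 10% of CAF-like cells with most Fos UMIs held 37.1% of them in WT and 43.6% in KO. Less abundant genes were seen in fewer cells, with Zfp36 in 28.2% and 21.1% of thinned cells and Egr2 in 11.0% and 4.74%.

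The number of the 10 genes seen in a thinned cell followed the same pattern. The median CAF-like cell showed 5 genes in WT and 4 in KO, and 5 or more genes were seen in 60.1% of WT (52.2 to 67.7) and 33.7% of KO cells (27.0 to 40.9). Cells with none of the 10 genes made up 4.29% (1.74 to 8.65) in WT and 3.68% (1.49 to 7.44) in KO, so few cells were silent in either library. The number of UMIs of the 10 genes per thinned cell was 10 in WT and 6 in KO at the median, 5 and 3 at the lower quartile and 15 and 9 at the upper quartile, so that KO was lower at each of these points. Its mean was 11.0 in WT and 6.67 in KO, with standard deviations of 8.39 and 5.09, a wider spread than counting error alone gives. In macrophage-like cells 5 or more genes were seen in 38.0% (33.9 to 42.3) and 30.5% (26.2 to 35.2) of cells, and in melanoma-like cells in 0.561% and 1.14%, with 32.6% and 31.7% showing none.

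**Figure D4:**
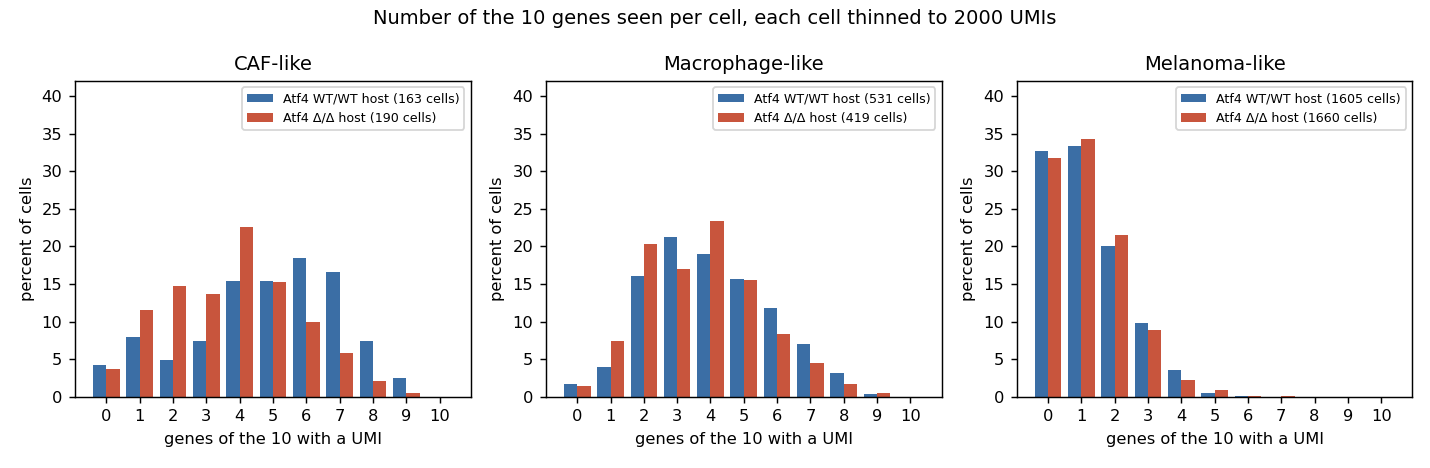
Percent of cells by the number of the 10 genes with a UMI, after thinning each cell to 2000 UMIs, for the WT (blue) and KO (red) library. The WT CAF-like cells centre on 5 genes and the KO cells on 4, macrophage-like cells centre on 4 in both, and most melanoma-like cells show 0 or 1.

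The genes tended to be seen in the same cells, in melanoma-like and macrophage-like as well as CAF-like cells. Of 36 pairs without Egr2, 35 (WT) and 34 (KO) were found together in more thinned CAF-like cells than the product of their shares gives. The median was 1.15 and 1.17 times that product. In macrophage-like cells 35 and 32 of 36 pairs were above it, with medians of 1.09 and 1.09. In melanoma-like cells it was 31 and 30 of 36, with higher medians of 1.30 and 1.29. Pairs of other genes were not counted, so whether this is particular to these genes was not tested. In CAF-like cells Egr2 was seen in the fewest cells, and its pairs lay on both sides of that product. They ran from 0.39 (Zfp36) to 1.28 (Fos) times it in WT and from 0.36 (Jund) to 2.64 (Dusp1) in KO. The pair with the highest correlation of log UMIs across CAF-like cells was Fos and Egr1 in both libraries, with Pearson's r of 0.52 over 163 WT and 0.33 over 190 KO cells. In macrophage-like cells the highest was 0.27 for Egr1 and Dusp1 in WT and 0.26 for Junb and Zfp36 in KO. These are correlations across cells of 1 library, and the cells share its capture, dissociation and thinned depth.

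Depth, mitochondrial share and heat shock RNA, which can mark the handling of cells, were set beside the 10 genes. Shallow cells had the higher levels. In WT CAF-like cells the sum was 8605 CPM in 26 cells under 2000 UMIs, 5577 CPM in 119 cells of 2000 to 5000 and 4281 CPM in 42 cells of 5000 to 10000 UMIs, and in KO it was 3662, 3486 and 2392 CPM. The WT value was above the KO value in each of the 3 depth ranges, and with cells of at least 2000 UMIs only, the KO/WT ratio of the sum was -0.75. Macrophage-like cells showed the same order, from 4669 to 3029.5 CPM in WT and from 4186 to 2412 CPM in KO. Among CAF-like cells with under 2.5% mitochondrial UMIs the sum was 4257 CPM in 25 WT and 2699.7 CPM in 48 KO cells, and with 2.5 to 5% it was 5193 and 3238 CPM.

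**Figure D5:**
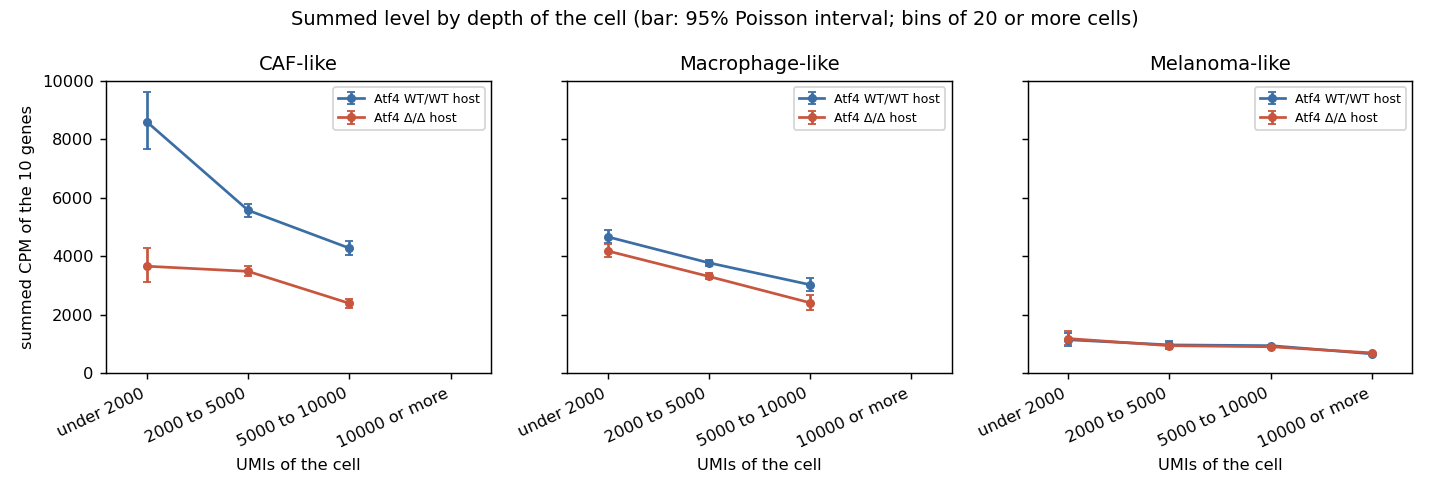
Summed CPM of the 10 genes by the number of UMIs of the cell in CAF-like, macrophage-like and melanoma-like cells, with 95% Poisson intervals and only ranges of at least 20 cells. The WT CAF-like line runs from 8605 to 4281 CPM and lies above the KO line from 3662 to 2392 CPM in every range.

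The list of 14 heat shock genes, which dissociation is also known to raise, had a nearly level sum in CAF-like cells of the 2 libraries, while single genes differed. Its sum was 5806 CPM (WT) and 5887 CPM (KO), and across thinned cells its correlation with the sum of the 10 genes was -0.03 in WT and 0.09 in KO. Within the list Hspa1a and Hspa1b, the stress-inducible chaperones of the HSP70 family, were lower in KO at -1.32 (-1.80 to -0.85) on 118 and 58 UMIs and -1.11 (-1.82 to -0.42) on 51 and 29 UMIs. Hspb1, a small heat shock protein, was higher at 1.51 (0.95 to 2.09) on 35 and 122 UMIs. The list as a whole had 2 lower and 1 higher of 14 past 2-fold, against 5.82% and 5.01% of all genes, and a median of -0.08. Intervals lay below 0 for 5 and above 0 for 2 of the 14, against 11.6% and 9.55% of all genes. In melanoma-like cells its sum was 15209 and 12079 CPM.

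RNA of other cell types in the CAF-like cells also differed between the libraries. Of 10 macrophage markers 9 were seen in WT and 10 in KO CAF-like cells, at a summed 461 and 244 CPM, against 31837 and 33235 CPM in macrophage-like cells. The 8 markers of cycling cells were at 842 and 425 CPM, and the CAF markers themselves at 48655 and 35513 CPM. The part of these in the ratios was not tested. The 10 WT and 10 KO CAF-like cells with 3 or more markers of mural cells, the contractile cells around vessels, had a summed level of 2401 and 2698 CPM and a ratio of 0.17 (-0.22 to 0.55), and the sum in the other CAF-like cells was at -0.84 (-0.91 to -0.76). Melanoma-like cells with 3 or more cycling markers numbered 1252 in WT and 1077 in KO, and those with fewer 427 and 646. In the first set the sum of the 10 genes was 653 and 659 CPM, at a ratio of 0.01 (-0.03 to 0.05). In the second it was 1057 and 957 CPM, at -0.14 (-0.20 to -0.08). Jun was at 0.13 (0.04 to 0.23) and -0.39 (-0.52 to -0.26), on opposite sides of 0 in the 2 sets.

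The wider early response was read from a list of 56 other genes, of which 52 had at least 20 UMIs in CAF-like cells. Of these 8 were lower in KO past 2-fold and 1 was higher, against 5.82% and 5.01% of all genes in this class. Intervals lay below 0 for 18 and above 0 for 8, against 11.6% and 9.55% of all genes, and the median log2 ratio was -0.29. Myc, the growth-promoting transcription factor, was at -1.63 (-2.39 to -0.91) on 58 and 23 UMIs. Id3, an inhibitor of helix-loop-helix factors, was at -1.36 (-1.83 to -0.90) on 123 and 59 UMIs. Gadd45g, a stress-responsive growth regulator, was at -1.26 (-1.74 to -0.78) on 111 and 57 UMIs. These 3 genes were all past 2-fold with intervals clear of 0. Egr3, another EGR gene, was at -1.25 (-1.76 to -0.77) on 105 and 54 UMIs, and Atf3, a stress-induced ATF family member that ATF4 can induce, at -1.09 (-1.83 to -0.38) on 47 and 27 UMIs. In the other direction Fosl1, which encodes the AP-1 subunit Fra-1, was at 1.32 (0.53 to 2.17) on 18 and 55 UMIs. The list thus held genes on both sides of 0, unlike the 10 genes in this class.

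In macrophage-like cells 1 of 54 measured genes of the wider list was lower and 3 were higher past 2-fold, where 2.64% and 2.91% of all genes were, with a median of 0.01, and the 1 with at least 50 UMIs was Per1, a clock gene that glucocorticoids and cAMP induce, at 1.49 (0.90 to 2.11) on 35 and 77 UMIs. In melanoma-like cells 1 of 53 was lower, Myc at -1.10 (-1.24 to -0.96) on 1320 and 612 UMIs, and 3 were higher, namely Klf2, Cebpb and Plk3 at 1.05, 1.01 and 1.01, against 1.05% and 3.36% of all genes. The 23 upstream regulators, among them MAP kinases, Srf and Creb1, had 21 measured genes in CAF-like cells, of which 0 were lower and 2 were higher past 2-fold, where 5.82% and 5.01% of all genes were, with a median of -0.10. Those 2, Mkl2 and Mapk8, named after their values were seen, had 26 and 33 UMIs over both libraries and intervals that included 0.

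The genes most like the 10 in their pattern were sought over 11 sums of cells by class and library, with at least 20 cells each, among 9786 genes. By Pearson's r of log2 CPM with the sum of the 10 genes they were Slfn5 at 0.97, Tagln2 at 0.97, Clec2d and Crip1 at 0.96, Ripk3 at 0.95, Serf2, Reep5, Ly6e and Nfkbiz at 0.94 and Oasl2 at 0.94. Slfn5 ranged from 0.313 to 210 CPM over these sums and Nfkbiz, an inducible NF-κB cofactor on the wider early response list, from 9.26 to 202 CPM. The 11 sums come from 2 libraries, and 2 of them are the melanoma-like sums, which had the lowest levels of the 10 genes together.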

How the data were processed

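Single-cell RNA-seq was done on 2 libraries, and the deposited values are unnormalised UMI counts, which the authors made with Cell Ranger 3.1.0 on GRCm38 with an Ensembl annotation. The labels and the methods differ on the kit version. Following the study's filters, a cell needed 200 to 5000 genes and no more than 7.5% of UMIs from mitochondrial genes. Cells were classed by how many listed markers they showed: 5 of 10 for CAF-like, endothelial-like and melanoma-like cells (the last also with at least 0.5% of UMIs from melanoma markers), 6 of 10 for macrophage-like, 3 of 12 for T/NK-like, and, in cells outside every other gate, 3 of 8 for monocyte-like cells. Cells passing several gates (125 WT, 54 KO) or none (669, 679) were left out. These numbers were set after the marker counts, and before the 10 genes, had been read. The 10 genes and all lists were chosen with earlier results of these data known.

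For each class and library UMIs were added up over cells and expressed as CPM. Sums have exact Poisson, shares exact Clopper-Pearson and KO/WT ratios exact conditional binomial intervals. No ratio is given where both sums are at or under 3 UMIs. Beyond the 10 genes, those named per list are the up to 5 with the largest log2 ratio past 1 in each direction among genes with at least 50 UMIs, and the 10 most like the sum by Pearson's r of log2(CPM+1) among genes with at least 200 UMIs. The ratio and interval step was checked on simulated CAF-like sums, where 96.2% of the intervals of 7308 genes held the true ratio. These sums were drawn with counting error only, without the spread between cells, and the other steps were not simulated. Doublet calls by Scrublet (scanpy 1.11.5) numbered 114 in WT and 50 in KO, and these cells were kept unless stated. edgeR 4.0.16 and DESeq2 1.42.0 gave the scaling alternatives, and other calculations used Python 3.11.15, numpy 2.4.6 and scipy 1.17.1.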

Additional observations from a re-analysis of the deposited data

Results flagged for a closer look

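For 3 genes the KO/WT difference pointed in opposite directions in host and melanoma-like cells, with intervals off 0 on both sides. Fosb had a log2 ratio of -0.91 in CAF-like and -0.74 in macrophage-like cells, against 0.29 in melanoma-like cells. Junb was at -0.44 in CAF-like and -0.17 in macrophage-like cells, against 0.17 in melanoma-like cells. Split by cycling markers, melanoma-like Junb was at 0.04 (-0.08 to 0.16) with 3 or more and at -0.05 (-0.20 to 0.10) with fewer. Its rise was thus seen only in the pooled melanoma-like cells. In the same 2 sets Fosb was at 0.21 (0.03 to 0.39) and 0.26 (-0.02 to 0.54), and Ier2 at 0.33 (0.15 to 0.50) and 0.19 (-0.14 to 0.52). Ier2 was at -1.34 in CAF-like cells, against 0.30 in melanoma-like cells. In Xist-only CAF-like cells, Junb was at 0.18 (-0.06 to 0.41) and Fosb at -0.27 (-0.63 to 0.09), so that neither interval lay below 0 there, while Ier2 was at -0.89 (-1.58 to -0.26). With 1 library per genotype these differences between classes were not tested.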

How the results depend on the processing

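Of the ratios of the 10 genes in CAF-like cells, 108 of 110 values recomputed under the alternatives were below 0. These values are not separate checks, since most alternatives reuse nearly the same cells. Dropping the upper limit on genes left the CAF-like ratios unchanged, and TMM and DESeq2 scaling shifted every gene alike, by 0.03 and 0.07. The Xist-only restriction changed the set of cells most. In Xist-only cells Junb turned to 0.18 and Zfp36 to 0.060, the sum moved to -0.45 and the genes lower past 2-fold numbered 1 in place of 4. The cause was not tested. In macrophage-like cells the same restriction moved the sum from -0.19 to -0.39. Under TMM scaling the melanoma-like sum was at 0.0092 in place of 0.05. The share of CAF-like cells with a Fos UMI moved with depth, to 46.7% of WT and 29.2% of KO cells thinned to 1000 UMIs and to 73.0% and 52.3% without thinning. Raising the mitochondrial limit to 15%, dropping the upper limit on genes, doublet removal, 1 more marker per gate, other scalings, equal weight per cell, subtraction of melanoma RNA, the 20-UMI minimum for counts and, chosen after seeing the data, cells of at least 2000 UMIs left the CAF-like sum between -0.80 and -0.71 and 4 genes past 2-fold. No paired analysis was possible because there is a single library for WT and a single library for KO. Egr2 in every class and all T/NK-like and endothelial-like KO values rest on few UMIs, and the depth there limits what can be seen.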
